A study of Mus musculus with 16 samples.

Results

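The genes described here did not overlap in signal between 8 arrays of lines of the NOD (non-obese diabetic) mouse strain and 6 of other lines. All these lines are pluripotent stem cell types by their labels, but some NOD lines were low in core pluripotency genes, as given below. On the deposited log2 values, a gene probe was kept when its lowest value on the 8 NOD arrays exceeded its highest value on the 6 others, or the reverse, and when its mean in the higher side was at least 8. Of 41174 gene probes, 105 met this rule, which is 0.255% of them. They stand for 98 of 27666 gene names. On 63 probes of 57 genes (0.153% of all probes) the NOD side was higher, and on 42 probes of 41 genes (0.102%) it was lower. The values of these 14 arrays chose the members, so the difference between the sides is described below and not tested. Tests were made of changes within a side and of whether the difference depended on the cell state.

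The series holds 16 one-colour arrays in 7 groups. The NOD side held 2 arrays of NOD embryonic stem (ES) cells, labelled 43 KP/CH and 85 KP, 4 passages (5, 7, 9 and 10) of the EpiSC-like ES line 1, and 2 passages (7 and 12) of the EpiSC-like induced pluripotent stem (iPS) line 6. The other side held 2 passages (12 and 20) of epiblast stem cells (EpiSC), the array labelled iPS_EpiSC 3M, 2 arrays of 129 ES cells labelled mESM and 1 labelled epiESM, the last 3 at passage 8. For EpiSC and EpiSC iPS the labels give the strain only as non-NOD, and they do not spell out epiESM, mESM or the letters after the line numbers. Each EpiSC-like group is 1 line at several passages, and the 2 mESM arrays have an identical source label, so p-values measure the spread between such arrays and not between independent lines. The arrays labelled NOD-ES 4K and iPS_EpiSC 1K were kept out of the choice, and their values are given beside the members.

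ES cells represent the naive pluripotency of the inner cell mass, and EpiSC represent the primed pluripotency of the later epiblast. The NOD mouse develops autoimmune diabetes spontaneously, and ES cells were long hard to derive from it. Inbred strains differ in genome sequence, so a transcript can differ in amount between strains, and an array probe designed on one strain's sequence can also bind another strain's allele less well. Probe sequences were not used here, and the part that mismatches to NOD alleles have in the values below was not tested.

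Cell identity was not balanced between the 2 sides. Pou5f1, the core pluripotency factor Oct4, had log2 values of 12.3 to 12.9 in NOD ES, 13.4 on both mESM arrays, 12.1 in epiESM, 9.12 to 9.74 in EpiSC, 7.64 to 8.34 in EpiSC-like ES and 6.11 to 6.38 in EpiSC-like iPS, where it was well above background on 1 of 2 arrays. The mean of 8 core pluripotency genes was lower on all EpiSC-like arrays (7.84 to 8.71) than in EpiSC (9.51 on both arrays). The mean of 11 naive ES markers was 13.39 to 14.01 in NOD ES, mESM and epiESM, 12.7 in iPS_EpiSC 3M and 8.45 to 8.66 in the EpiSC-like lines and EpiSC. The mean of 8 primed epiblast markers, Dnmt3b among them, was 11.3 in EpiSC, 9.58 to 9.75 in EpiSC-like ES and 8.43 to 8.51 in EpiSC-like iPS, the lowest of all arrays. The EpiSC-like lines thus shared the low naive level of EpiSC without its primed level. The mean of 12 fibroblast feeder markers was 13.7 to 13.9 in EpiSC-like ES, 12.1 to 12.2 in EpiSC-like iPS, 12.4 to 12.5 in EpiSC, 12.2 in iPS_EpiSC 3M, 11.7 in epiESM, 9.66 to 9.76 in NOD ES and 8.17 to 8.20 in mESM. EpiSC-like ES thus had the highest fibroblast level and mESM the lowest, and the part of such cells in the members' values was not tested. In bulk RNA, fewer cells of a type and less RNA per cell cannot be told apart. Of the gene spots, those well above background made up 56.8% to 88.5% on the NOD side and 51.2% to 72.6% on the other. The arrays iPS_EpiSC 3M, NOD-ES 4K and iPS_EpiSC 1K were the only ones on slide 6.

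The differences of the members were mostly small. The mean of the NOD side differed from that of the other side by 0.30 to 2.68 on the log2 scale, with a median size of 0.83, and by more than 1 on 35 of 105 probes. The gap between the sides, which is the distance from the lowest array of the higher side to the highest array of the lower side, ran from 0.0015 to 0.73 with a median of 0.11. It was above 0.5 on 5 probes. Of the 105 probes, 101 were well above background on all 14 arrays. The exceptions were Fhad1 (4 of 6 other arrays), A2m (5 of 6), Mirg (7 of 8 NOD arrays) and Coa4 (5 of 6 other arrays). For Coa4 the array not counted held a bright spot marked as an outlier, whose background flag was set to missing.

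**Figure D1:**
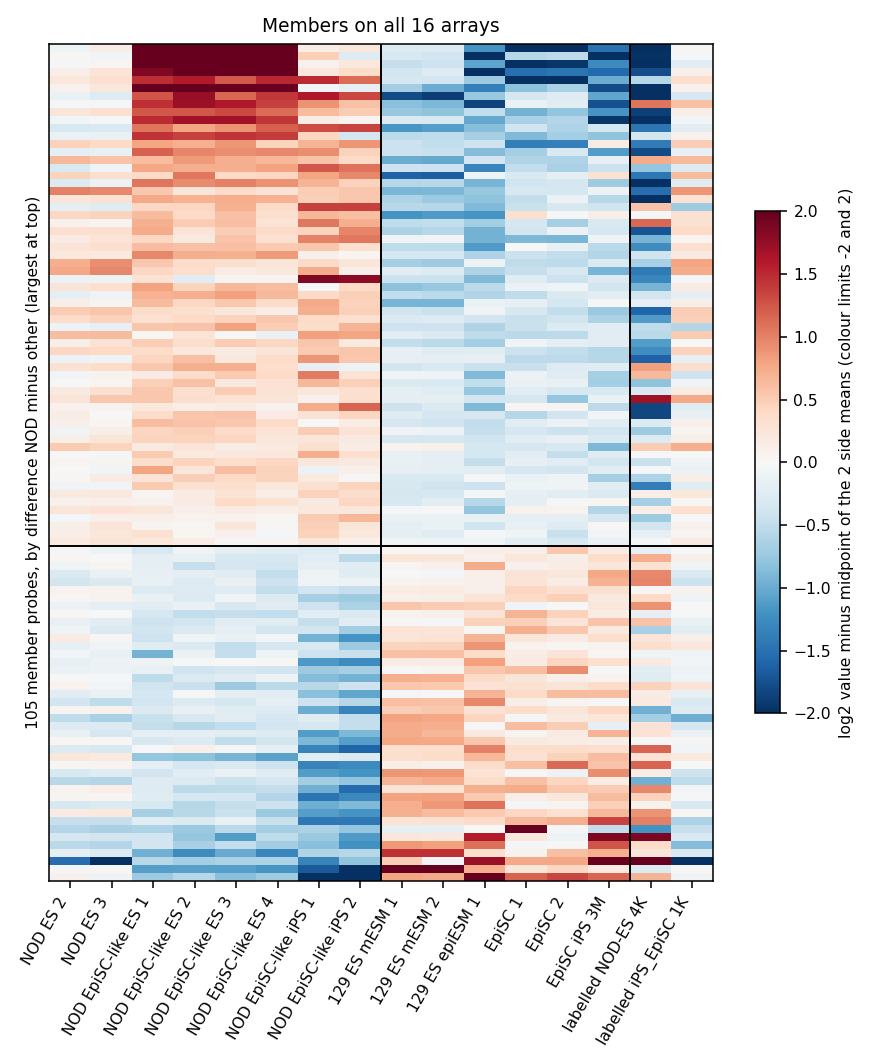
Each row is 1 of the 105 member probes and each column an array; colour gives the log2 value minus the midpoint of the 2 side means, in log2 units. The sides separate by the rule itself; the columns of NOD ES are pale on most rows, and the 2 left-out arrays at the right resemble the side opposite to their labels on many rows.

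The arrays nearest to the gap were most often the NOD ES arrays. On 64 of 105 probes the NOD array closest to the other side was an NOD ES array, against 25 for EpiSC-like ES and 16 for EpiSC-like iPS. On the other side the closest array was mESM on 37 probes, EpiSC on 35, iPS_EpiSC 3M on 24 and epiESM on 9.

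The 2 arrays that had no part in the choice lay mostly on the side opposite to their labelled strain. The array labelled NOD-ES 4K lay on the NOD side of the midpoint between the side means on 22 of 105 probes (21.0%). It was inside the range of the other arrays on 37 probes, beyond that range on the far side from NOD on 39, inside the NOD range on 20, beyond the NOD range on 6 and between the ranges on 3. The array labelled iPS_EpiSC 1K, of non-NOD strain by its label, lay on the NOD side on 74 of 105 probes (70.5%), inside the NOD range on 68 and inside the other range on 15. Both arrays went against their labels on most members. Whether their labels were exchanged was not tested; with the labels exchanged, 83 and 74 of the 105 probes would lie on the labelled side.

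Probes outside the set gave the same neighbours for these arrays. Over 13559 other probes with a mean of at least 8, iPS_EpiSC 1K differed from NOD ES replicates 2 and 3 by a median of 0.09 and 0.12 log2 units, and these 2 replicates differed from each other by 0.08. Over the 105 members it differed from them by 0.08 and 0.10. Its distance from iPS_EpiSC 3M, which shares its group label, was 0.55 over the other probes. The array labelled NOD-ES 4K was nearest to iPS_EpiSC 3M, at 0.39, and lay 0.57 and 0.58 from the NOD ES replicates. It had 26.3% of gene spots well above background, the lowest share of the 16 arrays, and iPS_EpiSC 1K had 40.5%. The array iPS_EpiSC 1K thus lay about as near to 2 arrays used in the choice as these lay to each other.

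The rule was also applied with each of the 14 arrays left out, and that array was then placed on the probes chosen without it. EpiSC-like ES arrays lay on the NOD side on 91.3% to 96.2% of probes and EpiSC-like iPS arrays on 83.7% to 87.2%; in each case other passages of the same line had taken part in the choice. The NOD ES arrays lay there on 50.7% of 140 probes (0.34% of all) and 55.4% of 130 (0.316%), although the other NOD ES array had taken part. Among the others, the mESM arrays lay on the NOD side on 7 of 106 and 7 of 108 probes, EpiSC on 31 of 129 and 17 of 116, and epiESM on 32 of 139 (0.338% of all probes kept). The array iPS_EpiSC 3M, the only array of its group in the choice, lay on the NOD side on 333 of the 444 probes chosen without it (1.08% of all). That array alone removed most of those probes: the rule kept 106 to 140 when any other array was left out.

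Leaving out a whole group, an alternative chosen after the data were seen, removed the shared lines. Without NOD ES the rule kept 2913 probes, 7.07% of all, and the NOD ES arrays lay on the NOD side on 2.78% and 3.02% of them. Without EpiSC it kept 657 (1.6%), and the EpiSC arrays lay on the NOD side on 80.7% and 79.1%. Without EpiSC-like ES it kept 486 (1.18%), and those 4 arrays lay on the NOD side on 24.1% to 31.1%. Without EpiSC-like iPS it kept 252 (0.612%), with those arrays on the NOD side on 46.0% and 43.7%, and without mESM 227 (0.551%), with 51.1% on both arrays. In none of these 5 groups did the arrays lie mostly on the side of their labelled strain; of the single-array groups, epiESM did and iPS_EpiSC 3M did not. Of the 2913 probes kept without NOD ES, 2808 are not among the 105, and the NOD side then holds EpiSC-like lines only, so state and strain cannot be told apart there. Without EpiSC the other side holds only mESM, epiESM and iPS_EpiSC 3M, while most NOD arrays are EpiSC-like. The part of state in the placement of EpiSC was not tested. These larger sets also held most or all members: 105 without EpiSC-like iPS, EpiSC or NOD ES, 103 without EpiSC-like ES and 104 without mESM. On those members the rule had already kept the omitted arrays apart from the opposite side. The shares say how the rule placed groups it had not used, and they test nothing of the 105 themselves. The 105 probes are called by their rule, the non-overlapping set, below.

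**Figure D2:**
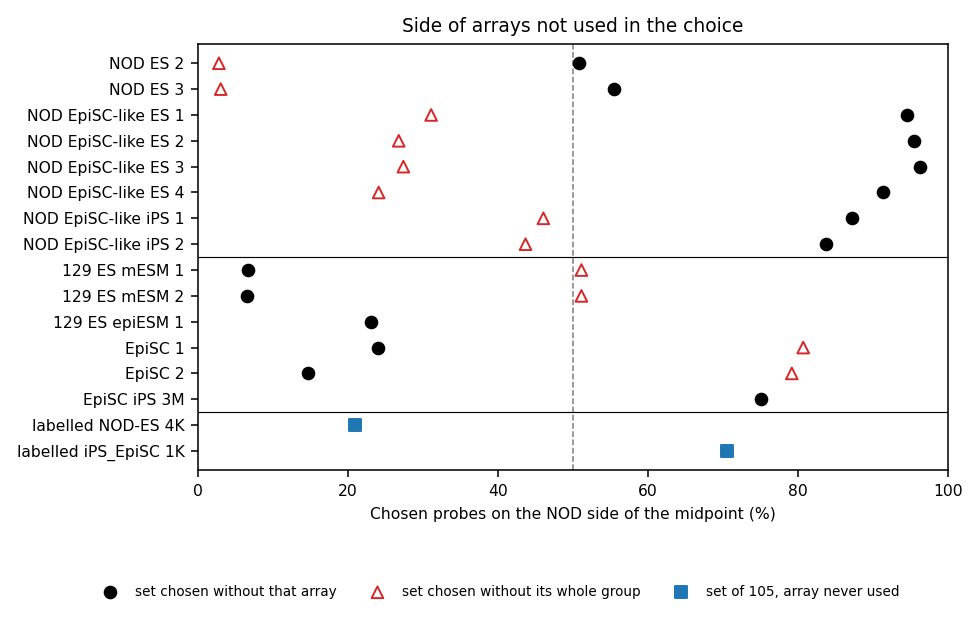
The x axis gives the percentage of chosen probes on which an array lay on the NOD side of the midpoint; circles use the set chosen without that array, triangles the set chosen without its whole group, and squares the 105 members for the 2 arrays never used. Triangles of NOD groups lie between 2.78% and 46.0%, left of the dashed line at 50%, and those of EpiSC lie at 79.1% and 80.7%.

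Only 7 of the 105 probes still separated the labelled strains when all 16 arrays were counted by their labels. This count rests on the labels of NOD-ES 4K and iPS_EpiSC 1K, whose exchange was not tested. The 7 included Tacc1, Dhrs3 and Tecpr1, higher on the NOD side, and Got2, Rwdd1 and Coa4, lower. Got2, the mitochondrial aspartate aminotransferase, had 11.4 to 11.9 on the 8 NOD arrays, 11.88 in NOD-ES 4K, 11.94 in iPS_EpiSC 1K and 11.96 to 12.3 on the others. These 7 were found after the values were seen.

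Among secreted and matrix proteins the NOD-higher members had the largest differences of the set. Mia, a small secreted protein of cartilage first found in melanoma cells, has 2 member probes on chr7:24098681-24099104 (mm7). On the probe with the larger difference, the 8 NOD arrays had a lowest value of 9.94, a median of 11.4 and a highest of 12.7; the 6 others had 7.47, 8.68 and 9.75. The difference of the means was 2.68, or 6.41-fold. The 4 EpiSC-like ES arrays stood at 12.5 to 12.7, while NOD ES (9.94 and 10.2) and EpiSC-like iPS (10.2 on both arrays) lay just above both mESM arrays (9.75). NOD-ES 4K had 7.85 and iPS_EpiSC 1K 10.04. The other member probe differed by 2.43, and 1 more Mia probe, which overlapped between the sides, by 2.31.

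A2m, the broad plasma proteinase inhibitor alpha-2-macroglobulin, had 8.73, 10.3 and 11.7 (lowest, median, highest) on the NOD side and 5.64, 8.44 and 8.67 on the other, a difference of 2.49. A further A2m probe, with a mean under 8 on both sides, differed by 0.44 and overlapped. Sdc4, a cell-surface heparan sulfate proteoglycan, is a member by 2 probes with differences of 1.31 and 0.99. On the first probe its NOD arrays kept to 10.06 to 10.54, and the others spread from 8.27 in EpiSC to 9.82 in iPS_EpiSC 3M. Serpinb1a, a mainly intracellular inhibitor of neutrophil serine proteases, had 9.14, 10.4 and 11.4 on the NOD side against 7.54, 8.41 and 8.67. All 4 EpiSC-like ES arrays stood at 11.3 to 11.4 and the other 4 NOD arrays at 9.14 to 9.55. In a grouping by textbook role made after the values were seen, 7 of 9 probes for extracellular, secreted or adhesion proteins were on the higher side. These 9 probes stand for 7 genes, and of all 105 members 63 were on the higher side.

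Enzymes and transporters were found on both sides. Padi2, which converts arginine to citrulline in proteins, had 8.58, 9.56 and 10.8 on the NOD side and 6.45, 6.97 and 8.19 on the other, a difference of 2.38 (5.19-fold). Its high arrays were again EpiSC-like ES (10.3 to 10.8), and the highest others were both mESM arrays. Pla2g7, the secreted acetylhydrolase of platelet-activating factor, differed by 2.03 with a gap of 0.0015. Its lowest NOD array and its highest other array both read 8.68. Aldoc, the brain-type glycolytic aldolase, differed by 1.60, and Abca1, which exports cholesterol to lipoproteins, by 1.35.

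Slc44a1, a choline transporter at chr4:53636052-53636111 (mm7), had the widest gap of all members, 0.73. Its values were 8.68, 9.30 and 9.74 on the NOD side and 7.24, 7.63 and 7.94 on the other. NOD ES stood at 8.68 and 8.74 and mESM at 7.67 and 7.63, so the sides were apart in both states. Yet NOD-ES 4K had 6.57, below all 14 arrays, and iPS_EpiSC 1K had 8.55, just below the NOD range. A second Slc44a1 probe differed by 0.40 and overlapped.

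Nupr1 is a small nuclear protein induced by cell stress. Its 8 NOD arrays lay within 12.6 to 13.1 and its 6 others within 11.2 to 12.1, a difference of 1.26 with a gap of 0.55. The arrays labelled NOD-ES 4K (12.98) and iPS_EpiSC 1K (12.89) both fell in the NOD range. Gadd45b, induced by stress and DNA damage, differed 2.82-fold, with values from 12.1 to 13.8 on the NOD side and from 11.3 to 12.1 on the other. Plk3, a polo-like kinase of the stress response, was lower on the NOD side by 1.01.

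Among other NOD-higher members with the largest differences, the unnamed transcript TC1463322 differed by 2.24, Fhad1 by 1.89 and Pxk, a protein with a lipid-binding PX domain, by 1.28. Arid5b, a DNA-binding protein of chromatin complexes, differed by 1.19, and its lowest arrays were both mESM (6.66 and 6.63), while the remaining other arrays ran from 7.96 to 8.57. Rtkn differed by 1.02.

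Among the NOD-lower members, Dnmt3b, a de novo DNA methyltransferase and a primed epiblast marker, had the largest difference of this side, -2.41, on a probe at chr2:153428204-153428263 (mm7). The 8 NOD arrays had a lowest value of 6.56, a median of 9.42 and a highest of 10.2; the 6 others had 10.9, 11.3 and 12.1. The 2 EpiSC-like iPS arrays, at 6.87 and 6.56, lay far below the rest of the NOD side, which spanned 9.31 to 10.2. NOD-ES 4K had 10.8 and iPS_EpiSC 1K 10.07. Dnmt3a, the second de novo methyltransferase, had 7.52, 8.05 and 8.66 on the NOD side and 8.90, 9.48 and 10.3 on the other, a difference of -1.54. Its highest values were those of mESM (10.3 on both arrays). The 2 further Dnmt3a probes differed by -0.72 and by -0.29, the latter with a mean under 8 on both sides, and both overlapped between the sides.

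The next largest differences of this side were those of Slc38a4 and Mirg. Slc38a4, an amino acid transporter expressed from the paternal allele, differed by -2.17. It had 6.96, 8.38 and 9.51 on the NOD side, where NOD ES was highest, and 9.66, 10.05 and 11.98 on the other, where both mESM arrays were highest. NOD-ES 4K (9.21) and iPS_EpiSC 1K (9.47) both fell in the NOD range. A further Slc38a4 probe differed by -0.98 and overlapped between the sides. Mirg, a maternally expressed noncoding RNA that hosts microRNAs, had 5.86 to 7.36 on the NOD side and 7.85 to 10.4 on the other. It was lowest in iPS_EpiSC 1K (5.84) and NOD ES (5.86 and 6.38), and highest in NOD-ES 4K (11.5) and iPS_EpiSC 3M (10.4).

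Other large NOD-lower members had varied roles. Eno3, the muscle-type enolase of glycolysis, differed by -1.22, with 9.37 to 10.7 on the NOD side and 11.1 to 12.2 on the other. Selenoh, a nuclear selenoprotein, had one of the tighter patterns: 12.3 to 12.9 on the 8 NOD arrays and 13.3 to 13.9 on the 6 others, with a gap of 0.42. Slc43a1, a transporter of large neutral amino acids, differed by -1.34, Gstt2, a glutathione S-transferase, by -1.08, Dtymk, which makes thymidine diphosphate, by -1.06 and Cemip2, a cell-surface hyaluronidase, by -1.04. The transcript LOC544881 differed by -1.34 and the zinc finger gene Zfp239 by -0.95.

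The value of Coa4, an assembly factor of cytochrome c oxidase, rested on 1 spot. EpiSC replicate 1 read 13.4, where the other 5 arrays of its side read 8.17 to 8.67 and the NOD arrays 7.90 to 8.14. The extraction software marked that spot as an outlier. With the spot left out, on processed signal scaled to the 75th percentile, the difference was -0.58 in place of -1.30.

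**Figure D3:**
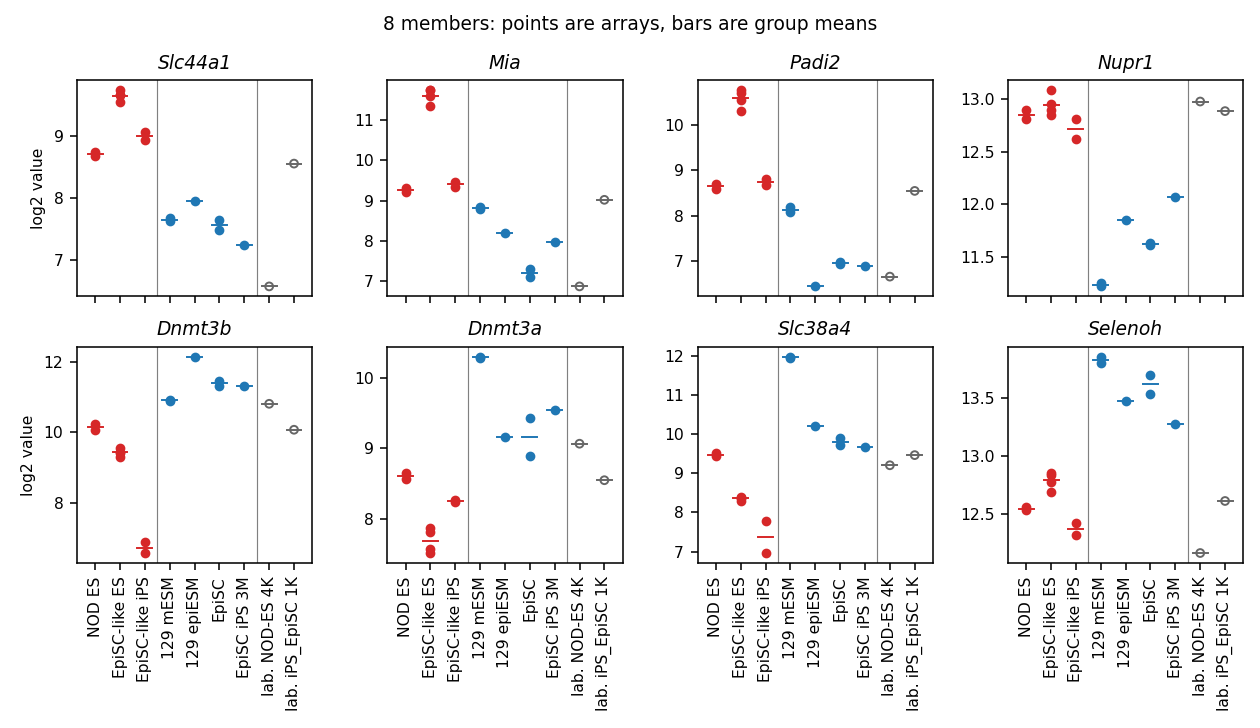
Log2 values of 8 members by group; points are arrays (red NOD, blue other, grey open the 2 left-out arrays) and bars are group means. Dnmt3b is lowest in EpiSC-like iPS (6.56 and 6.87), Mia and Padi2 are highest in EpiSC-like ES, and the left-out arrays change sides between panels.

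Whether the members also changed within a side was tested with limma on contrasts between groups of the same side, which the rule did not compare. The p-values were adjusted over all probes tested. The rule allows no member to vary so widely within a side that the sides overlap, and the members' changes were smaller than those of other bright probes. The median size of the difference between NOD EpiSC-like and NOD ES was 0.55 over the members and 0.91 over 13654 bright probes, those with a mean of at least 8 over the 14 arrays. For EpiSC against mESM these were 0.31 and 0.69.

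Between NOD EpiSC-like lines and NOD ES, 71 of 105 members were called, against 50.2% of all probes tested and 72.9% of the bright probes; the members' share, 67.6%, lay below that of the bright probes. Of the members, 28 were higher and 43 lower in EpiSC-like lines, against 22.8% and 27.3% of all. The members' median was -0.18, and that of all probes -0.06. The split depended on scaling: the deposited values called 33 higher and 30 lower, and normexp with quantile normalization 36 and 32. Of the 63 NOD-higher members 26 rose and 9 fell, and of the 42 NOD-lower members 2 rose and 34 fell. This split follows the side that the rule assigned, so it is not independent of the choice. It was counted in the main scaling only and has no matching share over all probes. The contrast averages the 2 EpiSC-like lines with equal weight, so a value can rest mainly on either line. Its errors leave out the spread between lines. Dnmt3b fell by 2.56 ± 0.11 (SE; 6 against 2 arrays; limma adjusted p = 1.9e-07), and was far lower in the iPS line than in the ES line. Slc38a4 fell by 1.82 ± 0.21 (adjusted p = 7.2e-05), and Fhad1 rose by 1.52 ± 0.12 (adjusted p = 7.4e-06).

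Between EpiSC and mESM, 36 members (34.3%) were called, against 43.5% of all probes and 56.9% of bright probes; 16 were higher and 20 lower in EpiSC, against 19.5% and 24.1% of all. The median over all probes was -0.34 in this scaling and -0.12 in the deposited values, and over the members -0.01 and -0.03. Without either mESM array the count fell to 23, or 21.9% of members, against 29.5% of all probes. Pla2g7 rose in EpiSC by 2.07 ± 0.19 (2 against 2 arrays; limma adjusted p = 3.1e-05), near its rise in the NOD contrast of 1.73 ± 0.16. Padi2 had a difference of -1.84 ± 0.15 and the 2 Mia probes of -2.24 ± 0.18 and -2.60 ± 0.20, all called as lower. In the NOD contrast, a mean of both EpiSC-like lines, these 3 probes rose, with 1.12 ± 0.13, 1.13 ± 0.15 and 1.09 ± 0.16. On the Mia probe with the larger difference, EpiSC-like ES lay above NOD ES and EpiSC-like iPS near it, in the deposited values.

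The size of the difference between the sides depended on the state for 46 of 105 members, by the interaction term of the same limma fit (adjusted p under 0.05), against 32% of all probes tested and 49.5% of bright probes. The members' share, 43.8%, lay below that of the bright probes. State here means the labelled type, EpiSC or EpiSC-like against ES. The term compares differences between sides that the rule had kept apart. It was thus not independent of the choice, and its p-values do not test whether the sides differ. The signed term was positive for 22 and negative for 24, against 14.2% and 17.8% of all. Its median over all probes was 0.20 in this scaling and 0.03 in the deposited values. Without mESM replicate 2 the count was 30, or 28.6% of members, against 21.5% of all probes. On the deposited values 72 of 105 probes had the larger difference in the EpiSC type. Neither this count nor the counts by size that follow were made over other probes, so they cannot be read as particular to the members. The difference was at least 1 in both states for 8 probes only: Nupr1, Slc44a1, Pla2g7, Serpinb1a, Slc38a4, Mirg, Dnmt3a and Selenoh. It reached 1 in EpiSC type alone for 30 (Coa4 among them, through its outlier spot), in ES type alone for 13 and in neither for 54.

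The largest interactions were those of the leading genes. The 2 Mia probes had interaction terms of 3.69 ± 0.26 and 3.37 ± 0.24 (limma adjusted p = 3.0e-05 for both), since NOD ES exceeded mESM by 0.31 and 0.44 and EpiSC-like lines exceeded EpiSC by 3.79 and 3.30. Padi2 had 2.96 ± 0.20 (adjusted p = 2.6e-05), TC1463322 2.52 ± 0.25 and A2m 1.51 ± 0.29. In the negative direction stood, among others, Dnmt3b with -2.96 ± 0.17 (adjusted p = 1.5e-05), Arid5b with -1.86 ± 0.30, Rtkn with -1.48 ± 0.24 and Plk3 with -1.43 ± 0.27. Dnmt3b and Plk3 are NOD-lower members, so their difference was larger in size in the EpiSC type. Arid5b and Rtkn were NOD-higher members whose difference was larger in the ES type, 2.02 and 1.60 on the deposited values, than in the EpiSC type, 0.98 and 0.40.

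**Figure D4:**
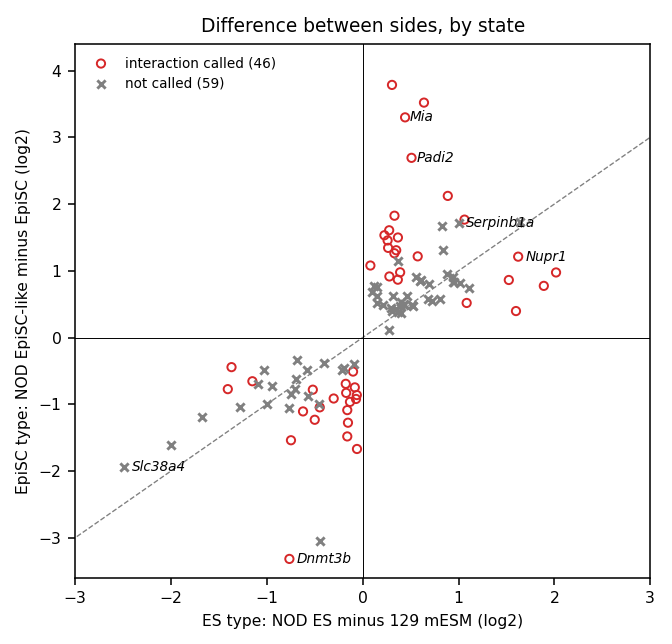
Each point is a member probe; the x axis gives the difference between NOD ES and 129 mESM and the y axis that between NOD EpiSC-like lines and EpiSC, both in log2 units of the deposited values. The dashed line marks equal differences; circles are the 46 probes with a called interaction on processed signal, and Mia, TC1463322, Padi2 and Dnmt3b lie far from the line. The cross at -3.04 is Coa4, whose EpiSC mean holds the outlier spot.

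The 2 EpiSC-like lines differed on 49 members (46.7%), against 48.9% of all probes and 63.2% of bright probes; 17 were higher and 32 lower in the iPS line, against 27.4% and 21.6% of all. The median over all probes was 0.26 here and 0.04 in the deposited values. Dnmt3b was lower in the iPS line, with -3.26 ± 0.12 (2 against 4 arrays; limma adjusted p = 5.5e-07), as were A2m with -2.33 ± 0.20, Mia with -2.20 ± 0.17 and -2.18 ± 0.16, and Serpinb1a with -2.10 ± 0.15. Between epiESM and mESM, 34 members (32.4%) were called, against 22% of all probes and 32.3% of bright probes; 19 were higher and 15 lower in epiESM, against 12.1% and 9.84% of all. The deposited values called 13 and 20, and normexp with quantile normalization 14 and 22. With either mESM array left out the count fell to 13 or 15, which is 12.4% or 14.3% of members, against 11.7% or 11.9% of all probes. epiESM is 1 array, so its spread was not measured: the errors and p-values assume that it varies like the other groups. Fhad1 was lower in epiESM, with -3.25 ± 0.18 (limma adjusted p = 1.1e-05), as were A2m with -2.94 ± 0.28 and Padi2 with -2.75 ± 0.19, and Arid5b was higher with 2.44 ± 0.28.

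In none of these 4 within-side contrasts were 16 of the 105 members called (15.2%), against 25.0% of all probes tested and 5.97% of bright probes. They included both Vps28 probes, both Ntmt1 probes, Zer1 and Coa4. A p above the threshold does not show that these were equal within the sides.

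Other probes of the same genes mostly pointed the same way but less cleanly. Of the 98 genes, 47 had no second probe. For 48 genes the array held 76 further probes outside the set, of which 65 differed in the member's direction. Among the 41 of these with a mean of at least 8 in the higher side, from 32 genes, 39 had the member's direction, and their difference was a median of 0.71 times the member's. The 2 exceptions were a probe of Ghitm (-0.49 against 0.45 on the member, while a further Ghitm probe had 0.51) and one of Carm1 (0.03 against -0.73). In the median such probe, 83.3% of pairs of an NOD and another array were ordered as on the member. The Arid5b member differed by 1.19 and 2 further bright Arid5b probes by 0.02 and 0.26.

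**Figure D5:**
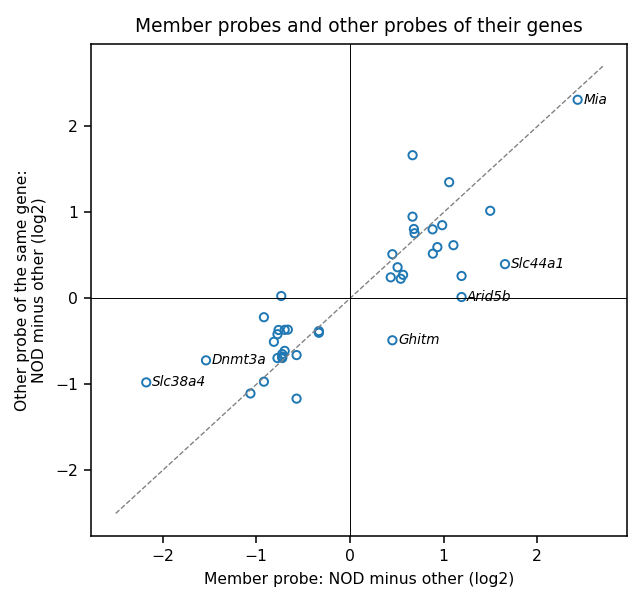
Each point is a further bright probe of a member gene; the x axis gives the member's difference and the y axis that of the further probe, NOD minus other, in log2 units. Most of the 41 points lie in the same quadrant as the member and nearer 0 than the dashed line of equality; 1 Ghitm probe lies on the opposite side, at -0.49.

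For 6 genes 2 or more probes were members, all in 1 direction within each gene. Mtarc2, a molybdenum enzyme that reduces N-hydroxylated compounds, had 3, with differences of 0.83, 0.81 and 0.72. On its widest-gap probe the NOD arrays had 13.6 to 13.8 and the others a median of 12.9, with 12.1 in NOD-ES 4K and 13.7 in iPS_EpiSC 1K. Vps28, a subunit of the ESCRT-I sorting complex, had 2 probes with 0.58 and 0.52, Aamdc 2 with 0.95 and 0.69, and Ntmt1, an N-terminal protein methyltransferase, 2 with -0.46 and -0.45. Mia and Sdc4 complete the 6.

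Of all gene names 0.354% were in the non-overlapping set, against which the gene lists are read. Of 8 primed epiblast markers Dnmt3b was the only member, and of 363 solute carrier genes 5 (1.38%) were: Slc44a1, Slc12a9 (0.79) and Slc41a3 (0.64) higher, and Slc38a4 and Slc43a1 lower. Of 22 glutathione S-transferase genes, 2 (9.09%) were members, Gstp1 (0.44) and Gstt2 (-1.08), in opposite directions, and of 344 zinc finger genes Zfp239 was (0.291%). No gene was a member among 8 core pluripotency genes, 11 naive ES markers, 12 fibroblast markers, 36 genes of the MHC region and antigen presentation, 24 candidates of NOD diabetes loci, 17 genes known to vary among inbred strains, 21 imprinted genes (a list without Slc38a4 and Mirg), 8 Y-linked genes, 2 X inactivation genes and 10 housekeeping genes. The same was true of 91 ribosomal protein genes, 85 histone genes, 56 Trim genes and 50 genes of interferon-induced families. Since the rule kept 0.255% of all probes, 0 is near what lists of these sizes would hold at that share.

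Some members lay near each other, and no matching count of neighbours was made for other genes. Of 97 member genes with a position in the files, 14 formed 7 neighbouring pairs within 500 kb, of which 6 had both genes in the same direction, and 18 pairs lay within 2 Mb, of which 11 did. Mia and Itpkc, an inositol trisphosphate kinase, both NOD-higher, lay 27.2 kb apart on chromosome 7. Selenoh and Slc43a1, both NOD-lower, lay 193 kb apart on chromosome 2. Zer1, Phyhd1 and Ntmt1 on chromosome 2 were the only run of 3 genes, and Ntmt1 differed in the opposite direction (-0.46) to Zer1 (0.36) and Phyhd1 (1.17). Chromosome 2 held 11.5% of the positioned member probes and 8.20% of all positioned probes, and chromosome 7 held 10.6% and 7.29%.

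At the edge of the rule, members and non-members were alike. Just inside stood Pla2g7, Naxe, Zer1, Wbp2 and Rtkn with gaps of 0.0015 to 0.0076, and on the lower side among others Pphln1, Mcts2, LOC671973 and Zfp239 with 0.0029 to 0.024. Just outside by overlap stood Sin3b, Dtd1, Gstm1, NAP103344-1 and an Eif3j1 probe, with gaps of -0.0046 to -0.0023. At the level threshold, Homer2 (8.13), Baiap2 (8.16) and Tecpr1 (8.17) were inside, and Lrg1 (7.98), Traf1 (7.95), Elfn1 (7.92), Zfp69 (7.91) and Fcgr2b (7.90) outside. Without a minimum level 165 probes did not overlap, 104 higher and 61 lower on the NOD side.

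The scale of the values also set the membership. All 105 members kept their direction on processed signal scaled to each array's 75th percentile and after normexp with quantile normalization. With the first of these scalings 58 of 105 still did not overlap, and with the second all 105. The second, like the deposited values, is quantile-normalized from the mean spot signal, so it is not an independent check. On the 4 slides that held both sides, the median difference within the slide was 0.81 to 0.90 on NOD-higher members and -0.84 to -0.57 on NOD-lower members. The rule fixes these directions, so they say nothing of slide, whose part was not tested.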

How the data were processed

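RNA of 16 cultures was hybridised to Agilent mouse arrays (design 014868, probe coordinates on mm7), per the file headers. Spot intensities and flags were extracted with Feature Extraction 10.1.1.1, per the file headers, which give the processed signal as background-subtracted intensity. The deposited value table holds log2 values. Its columns rank features as the mean spot signal does and share 1 median (6.93), so from the values it is quantile-normalized without background correction. The submitters' processing notes name limma without its settings. The members and gene lists were chosen with earlier results of these data known.

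The rule was applied to the deposited log2 values, averaged per probe over 43379 gene spots. Tests used log2 of the deposited processed signal minus each array's 75th percentile, with spots marked as outliers set to missing. Group means of the 14 arrays were fitted by limma 3.58.1 (R 4.3.3) on 34136 probes well above background on at least 2 (34135 for epiESM). A probe was called where its p, adjusted by Benjamini-Hochberg over all probes fitted, was under 0.05; "rose" and "fell" are used of these. ± is the standard error. The fit was tested on simulated data. RefSeq named 23075 probes through their accession, 6587 through the symbol and 3072 through an older symbol; 8440 kept the file's name. Named members were the 15 with the largest difference in each direction, members of the lists, genes with 2 or more member probes, runs of 3 member genes within 2 Mb, the 5 largest called interactions in each direction and probes at the thresholds; others are said to be chosen after their values were seen, as are those that illustrate a count. A few members are not reported here. Arrays carry no read depth; their number limits precision. Alternatives were other minimum levels, scalings, no filter, all 16 arrays, slide as a block, mESM arrays averaged and arrays left out.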

Additional observations from a re-analysis of the deposited data

Results flagged for a closer look

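In 3 of 88 sets of arrays examined (the sides of the named probes), 1 array stood far from the rest; chance gives about 1 in 20. Coa4 read 13.4 in EpiSC replicate 1, against 8.17 to 8.67 on the other arrays of that side. Both Ntmt1 probes were highest in iPS_EpiSC 3M, with 11.8 against 11.1 to 11.3 on the other 5, and with 12.4 against 11.6 to 11.9.

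The difference between the sides itself differed between EpiSC type and ES type for 46 members (43.8%), by limma's interaction term. The term was called for 32% of all probes tested and 49.5% of bright probes. It compares differences between sides that the rule had kept apart, so it was not independent of the choice. The signed term was negative for, among others, Dnmt3b (-2.96) and Plk3 (-1.43), NOD-lower members whose difference was larger in size in the EpiSC type. It was also negative for Arid5b (-1.86) and Rtkn (-1.48), NOD-higher members whose difference was smaller there. It was positive for the NOD-higher members A2m (1.51), TC1463322 (2.52), Padi2 (2.96) and the 2 Mia probes (3.37 and 3.69).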

How the results depend on the processing

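The rule kept 105 probes, 58 of which still did not overlap on the scaled processed signal; it kept 7 on all 16 arrays by their labels, 0 with a gap of at least 1, and 106 to 444 with 1 array left out (444 without iPS_EpiSC 3M). Without a whole group, chosen after the data were seen, it kept 252 (EpiSC-like iPS), 657 (EpiSC), 486 (EpiSC-like ES), 2913 (NOD ES) and 227 (mESM). With all 16 arrays, limma called 11 members for EpiSC against mESM, 15 for the interaction, 20 between the EpiSC-like lines and 1 for epiESM against mESM, where it called 22.3%, 10.2%, 24.7% and 2.83% of all probes. With both mESM arrays averaged it called 23, 30 and 15 for EpiSC against mESM, the interaction and epiESM against mESM (29.3%, 21.5% and 11.6% of all probes). With 1 array left out, these counts ran from 23 to 28, from 30 to 51 and from 13 to 15. In these comparisons 80 other values stayed within the limits set (counts within 1.5 times, shares within their interval), and no value of a named member changed sign. On the scaled processed signal 4 named members moved by more than the spread: Slc44a1, Fhad1, Mirg and Slc43a1. Of the calls named by count, the directions of Selenoh (NOD EpiSC-like against NOD ES) and 1 Mtarc2 probe (between the lines) turned under the other scalings. No paired analysis was possible because the labels give no replicate numbers shared between groups. The number of arrays, 1 or 2 in most groups, limits all tests.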
